A study of Mus musculus with 11 samples.

Results

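The hypoxia response genes described here are 10 genes of the cellular response to low oxygen, namely Hif1a, Epas1, Vegfa, Slc2a1, Pdk1, Ndrg1, Egln3, Bnip3, Adm and Car9, taken by name out of 18193 genes measured. Hypoxia-inducible factor is a dimer of a stable beta subunit and an alpha subunit, such as the products of Hif1a and Epas1. When oxygen is plentiful, prolyl hydroxylases such as that of Egln3 mark the alpha subunit for degradation through the von Hippel-Lindau protein. When oxygen is scarce the dimer binds short DNA elements and raises genes of glucose uptake, glycolysis, mitochondrial turnover and blood vessel growth. In the embryonic kidney, HIF and VEGF are known for their part in the growth of the renal vasculature, and much of the control of HIF acts on the protein, which these arrays did not measure.

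RNA of embryonic day 17 mouse kidney was hybridised to 11 Affymetrix 3' expression arrays. Robo2 encodes a receptor for SLIT guidance proteins that acts in the formation of the ureteric bud. The labels give the genotype as wild-type or Robo2 homozygous, with no further description of the allele or of the strain, and no other agent or treatment. The title series E17R2 held 3 wild-type and 3 homozygous arrays, the series R2E17 held 1 wild-type and 1 homozygous array, and a further 3 homozygous arrays were titled R2NB, and the labels do not explain NB. Nothing in the labels says that arrays of a group came from separate animals, so a p-value here reflects how far these samples scatter, and that scatter may be technical.

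The 6 E17R2 arrays and the 5 R2E17 and R2NB arrays had been normalized apart, with median intensities of 23.4 to 24.6 and of 47.1 to 53.4. Levels are therefore compared only within each set, except where they are set against the median gene of their own array. The R2E17 wild-type array stood apart in the difference between the 3' and 5' control probe sets, a measure that rises as RNA is degraded, at a log2 difference of 0.70 in Gapdh and 1.12 in Actb, where no other array exceeded 0.22 and 0.75. The kidney marker list was bright on every array, with summed intensities of 4499 to 8111 in the E17R2 set and of 24216 to 27487 in the other, led by Calb1 and Slc12a1. The 1 named probe set of Robo2 was dim. Its log2 intensities were 3.13, 3.68 and 3.16 in E17R2 wild-type and 2.03, 2.37 and 2.33 in E17R2 homozygous arrays, so these groups did not overlap. In the other set Robo2 was 3.96 in the wild-type array, 3.37 in the R2E17 homozygous array and 3.28, 3.86 and 3.99 in the arrays labelled R2NB homozygous, of which the third lay above the wild-type array. The labels do not say whether this probe set lies within the altered part of Robo2, so it does not check them.

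The comparison of E17R2 homozygous with wild-type kidneys asks whether the RNA of these genes differed with the Robo2 genotype. None of the 10 genes passed the test in either direction, and the differences ran from -0.45 for Ndrg1 to 0.23 for Hif1a on the log2 scale, where 1 stands for a 2-fold difference. Ndrg1 was the member whose 3 homozygous arrays all lay below the 3 wild-type arrays, and Hif1a the member whose 3 homozygous arrays all lay above. Slc2a1, Pdk1, Egln3, Bnip3 and Car9 had differences above 0 that turned below 0 when homozygous replicate 3 was left out. The test was limma's moderated test on 18193 genes with Benjamini-Hochberg adjustment at a threshold of 0.05. It called 0 genes (0 percent), and 1019 genes (5.6 percent) had an unadjusted p under 0.05, 1 of them a member. All 3 homozygous arrays lay above all 3 wild-type arrays for 918 genes (5.05 percent) and below them for 1318 genes (7.24 percent), against 1 and 1 of the 10 members.

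**Figure D1:**
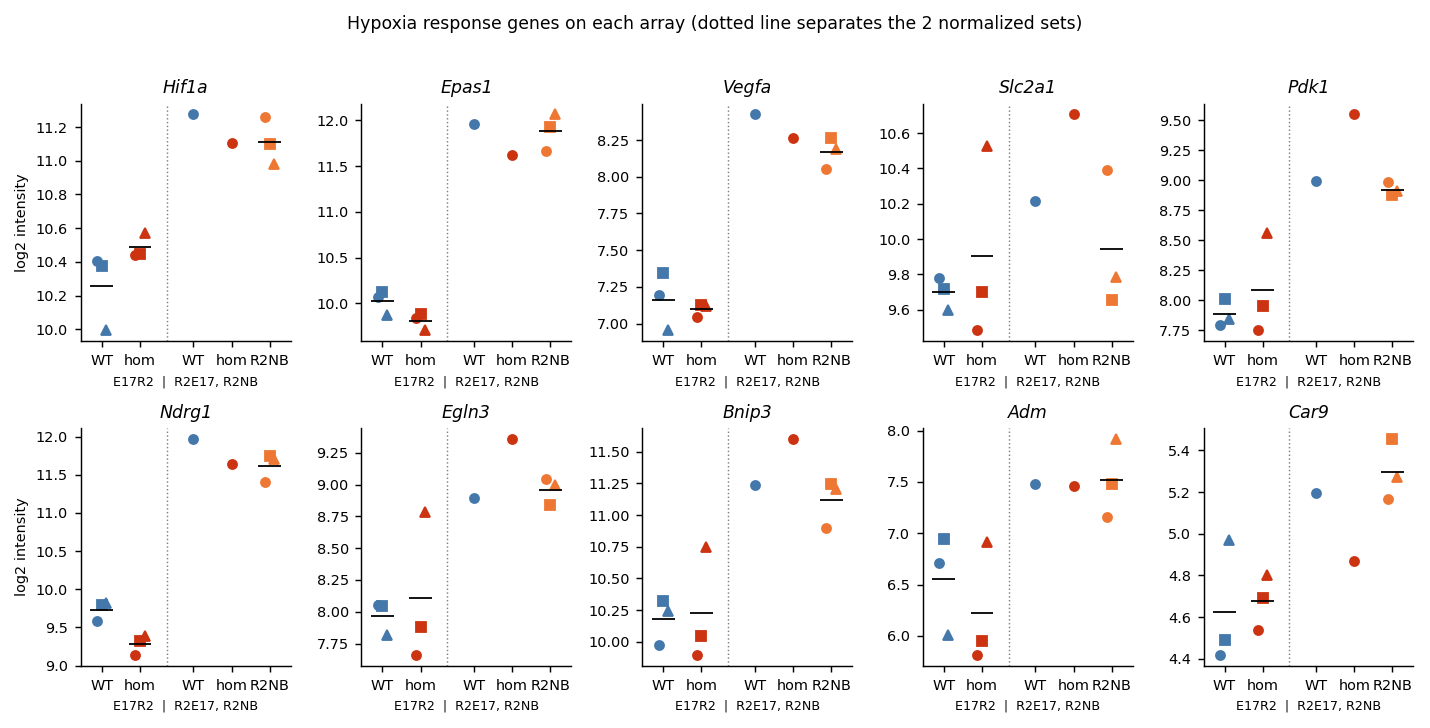
Log2 intensity (vertical axes, arbitrary intensity units) of the main probe set of each of the 10 genes, by group: E17R2 wild-type and homozygous left of the dotted line, and R2E17 wild-type, R2E17 homozygous and R2NB homozygous right of it. Each point is 1 array, circles, squares and triangles are replicates 1, 2 and 3, and black bars are means of 3 arrays; levels left and right of the line are on separately normalized scales. For Ndrg1 the 3 E17R2 homozygous arrays sit between 9.14 and 9.39, below the 3 wild-type arrays, and for Slc2a1 the triangle at 10.53 sits apart from the other 5 arrays.

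The transcription factor subunits were measured first. Hif1a, the oxygen-regulated alpha subunit found in most cells, gave log2 intensities of 10.41, 10.38 and 9.99 in E17R2 wild-type arrays and of 10.44, 10.45 and 10.57 in homozygous arrays. The groups did not overlap, and wild-type replicate 3 stood lowest. The difference was 0.23 ± 0.13 (SE; limma, adjusted p = 0.84), and it was 0.10 without wild-type replicate 3. Of the other 3 Hif1a probe sets, 1431981_at was dim, at 2.65 to 3.26, and differed by 0.34, whereas 1416035_at differed by 0.05 and 1448183_a_at by -0.21 with overlapping groups. Epas1 encodes HIF-2 alpha, which in the kidney is known from endothelial and interstitial cells. Its values were 10.07, 10.13 and 9.87 in wild-type and 9.84, 9.88 and 9.71 in homozygous arrays, and the groups overlapped at the lowest wild-type array. The Epas1 difference was -0.21 ± 0.10 (SE; limma, adjusted p = 0.84), and its second probe set differed by -0.17.

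Ndrg1, a cytoplasmic protein of differentiated epithelia that is induced by hypoxia, was the member with the smallest p. Its wild-type arrays gave 9.59, 9.79 and 9.82 (9.73 ± 0.13, SD, n = 3) and its homozygous arrays 9.14, 9.32 and 9.39 (9.28 ± 0.13, SD, n = 3). The groups were separate, and the difference was -0.45 ± 0.11 (SE), with an unadjusted limma p of 0.0048 and an adjusted p of 0.84 over all genes, so it did not pass. The value without homozygous replicate 3 was -0.51, and across 14 other settings it ran from -0.52 to -0.36. Ndrg1 has 5 probe sets on the array, and the letter x in the name of the main one means that its probes can also bind related sequences. All 5 gave lower homozygous means in the E17R2 set: 1420760_s_at by -0.36 and 1423413_at by -0.59, again without overlap, and 1450976_at by -0.26 and 1450977_s_at by -0.12 with overlap. The R2E17 pair did not repeat this on every probe set. There the homozygous array was lower by 0.33 in the main probe set and by 0.10 in 1420760_s_at, level in 1450976_at (0.01), and higher by 0.72 in 1423413_at and 1.03 in 1450977_s_at. The R2E17 wild-type array is the one with the high 3' to 5' control difference, and the part of that in these values was not tested.

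**Figure D2:**
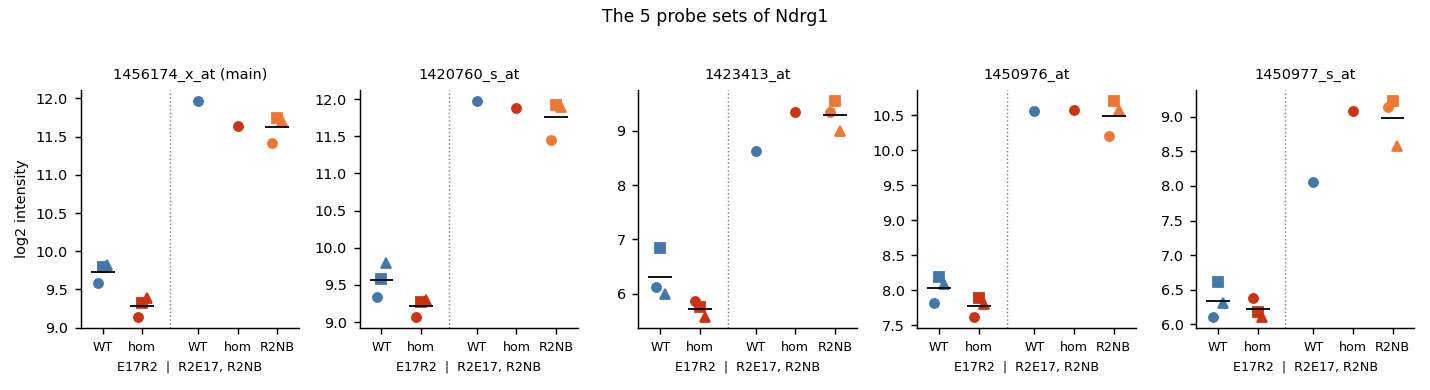
Log2 intensity (vertical axes) of the 5 probe sets of Ndrg1 by group, with 1 point per array, markers by replicate and bars for means of 3 arrays; the dotted line separates the 2 normalized sets. Left of the line the homozygous mean lies below the wild-type mean in all 5 panels, and right of it the R2E17 pair points down in the 1456174_x_at panel and up in the 1450977_s_at panel.

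The secreted products were next. Vegfa encodes the growth factor that draws blood vessels to the nephron and is made by podocytes and tubules. Its values were 7.19, 7.34 and 6.95 in E17R2 wild-type and 7.05, 7.13 and 7.12 in homozygous arrays, and the homozygous arrays lay inside the range of the wild-type arrays. The difference was -0.06 ± 0.12 (SE; limma, adjusted p = 0.94), and the second Vegfa probe set also gave -0.06. Adm encodes adrenomedullin, a vasodilator peptide made by vessels, smooth muscle and the adrenal medulla. Adm was 6.71, 6.94 and 6.01 in wild-type and 5.81, 5.95 and 6.91 in homozygous arrays, so wild-type replicates 1 and 2 and homozygous replicate 3 were high and the other 3 arrays were low. The difference was -0.33 ± 0.35 (SE; limma, adjusted p = 0.88), and it was -0.68 ± 0.28 without homozygous replicate 3 (adjusted p = 0.87). The same wild-type replicates 1 and 2 had the markers of adrenal cortex higher by 2.12 and 1.88 than the mean of the E17R2 set, and those of chromaffin and sympathetic cells higher by 1.78 and 1.63, while homozygous replicate 3 gave -1.72 and -0.07. Against homozygous replicates 1 and 2, replicate 3 had chromaffin and sympathetic markers higher by 0.5 or more in 4 of 5, with a median of 0.87. Adrenal cortex markers had a median of -0.77 by that measure. The part of these 2 kinds of markers in the Adm values was not tested.

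Of the remaining members, Car9 encodes a membrane carbonic anhydrase that exports acid and is known as a sharp marker of HIF activity. Car9 was measured at 4.42, 4.49 and 4.97 in wild-type and at 4.54, 4.69 and 4.80 in homozygous arrays, and every homozygous array lay within the wild-type range. The Car9 difference was 0.05 ± 0.16 (SE; limma, adjusted p = 0.96), and it was below 0 under 5 of 13 other settings. The 4 genes of glucose uptake, pyruvate use, oxygen sensing and mitochondrial turnover (Slc2a1, Pdk1, Egln3 and Bnip3) shared 1 pattern, described next.

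**Figure D3:**
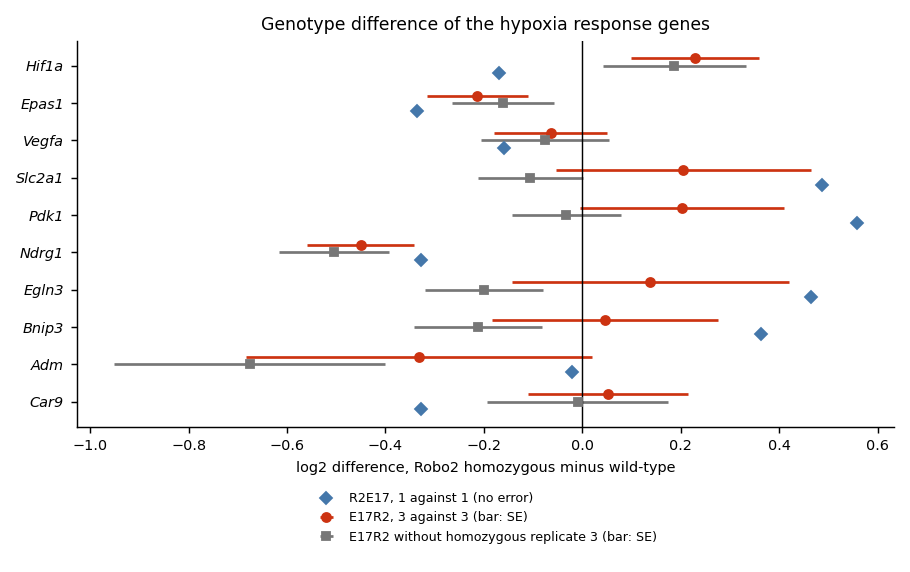
Homozygous minus wild-type log2 difference (horizontal axis) for each of the 10 genes: circles are E17R2 with 3 against 3 arrays, squares are E17R2 without homozygous replicate 3, bars are standard errors, and diamonds are the R2E17 pair, which has no error. Circles and squares lie on opposite sides of 0 for Slc2a1, Pdk1, Egln3, Bnip3 and Car9, whereas all 3 marks of Ndrg1 lie below 0.

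In the E17R2 set, homozygous replicate 3 was high for a group of HIF targets. Slc2a1, the glucose transporter GLUT1, was 10.53 on that array, against 9.48 and 9.70 on the other homozygous arrays and 9.78, 9.72 and 9.60 on the wild-type arrays. Pdk1, the kinase that keeps pyruvate out of the mitochondrion, was 8.55 there, against 7.75 and 7.95 in homozygous and 7.80, 8.01 and 7.84 in wild-type arrays. Egln3, the prolyl hydroxylase PHD3 and itself a HIF target, was 8.78 there, against 7.66 and 7.88 in homozygous and 8.05, 8.04 and 7.81 in wild-type arrays. Bnip3, a mitochondrial protein of mitophagy, was 10.75 there, against 9.90 and 10.05 in homozygous and 9.98, 10.32 and 10.25 in wild-type arrays. In each of these 4 genes the array stood above the other 5, which otherwise overlapped.

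Windows around the starts of these 4 genes are printed because the genes were high together, and each printed window holds the letters of a HIF core. A second Pdk1 window in the table, at chr2:71874654-71874953, holds none and is not printed. HIF dimers are known to bind a core that reads ACGTG or GCGTG, and each core found on either strand is in capitals (on the opposite strand it reads CACGT or CACGC, and the 2 strands overlap in CACGTG). Each window runs from 250 bases before the annotated start to 50 after it, on the strand of the gene, 5' to 3', from RefSeq on GRCm38.p6. Slc2a1 lies at chr4:119108495-119108794 on the plus strand, Pdk1 at chr2:71872974-71873273 on the plus strand, Egln3 at chr12:54203825-54204124 on the minus strand and Bnip3 at chr7:138909457-138909756 on the minus strand.
Slc2a1: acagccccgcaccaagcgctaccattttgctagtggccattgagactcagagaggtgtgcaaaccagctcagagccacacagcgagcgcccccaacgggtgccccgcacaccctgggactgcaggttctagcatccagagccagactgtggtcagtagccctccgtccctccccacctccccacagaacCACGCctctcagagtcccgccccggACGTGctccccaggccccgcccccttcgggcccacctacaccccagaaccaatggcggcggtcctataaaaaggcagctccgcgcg
Pdk1: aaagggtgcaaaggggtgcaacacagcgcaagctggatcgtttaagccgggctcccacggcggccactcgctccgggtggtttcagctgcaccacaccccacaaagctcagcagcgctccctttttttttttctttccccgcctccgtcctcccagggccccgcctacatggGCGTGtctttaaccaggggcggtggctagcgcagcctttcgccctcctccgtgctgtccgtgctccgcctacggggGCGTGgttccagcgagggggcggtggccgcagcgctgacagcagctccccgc
Egln3: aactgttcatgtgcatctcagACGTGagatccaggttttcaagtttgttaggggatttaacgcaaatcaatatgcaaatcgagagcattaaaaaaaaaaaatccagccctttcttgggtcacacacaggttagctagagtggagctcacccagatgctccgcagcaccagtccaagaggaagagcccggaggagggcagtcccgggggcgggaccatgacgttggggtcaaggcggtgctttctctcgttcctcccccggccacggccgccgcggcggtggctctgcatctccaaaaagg
Bnip3: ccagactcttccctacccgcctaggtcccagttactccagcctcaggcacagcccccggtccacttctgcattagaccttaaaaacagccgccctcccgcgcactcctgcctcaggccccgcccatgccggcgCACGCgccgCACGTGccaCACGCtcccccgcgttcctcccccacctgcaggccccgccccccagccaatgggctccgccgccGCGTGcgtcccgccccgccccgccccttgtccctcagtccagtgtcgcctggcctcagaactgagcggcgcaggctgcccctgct

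Bnip3 held 5 core matches in its window, a cluster of 4 between 117 and 99 bases before the start and 1 at 35 bases before it. Slc2a1 held 2, at 61 and 36 bases before the start, Pdk1 held 2, at 78 and 2 bases before it, and Egln3 held 1, at 229 bases before it. The table held windows of 8 of the 10 members, without Epas1 and Ndrg1, and all 8 had a core in at least 1 window (8 of 10 windows, since Vegfa and Pdk1 have 2 each). Of all 32851 windows of this length, 19.6 percent held ACGTG, 32.4 percent held GCGTG and 43.8 percent held either. Hif1a held 3 matches and Vegfa, Adm and Car9 held 1 or 2 each, although these members did not share the pattern of Slc2a1 except for Adm. The Vegfa matches lie only in its window at chr17:46025114-46025413 on the minus strand. Its other window, further upstream at chr17:46032328-46032627, holds none. A match is a description of the letters, and binding was not measured.

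The difference of homozygous replicate 3 from the mean of homozygous replicates 1 and 2 was 1.03 for Adm, 1.01 for Egln3, 0.93 for Slc2a1, 0.78 for Bnip3 and 0.71 for Pdk1. The other members differed by -0.16 (Epas1) to 0.18 (Car9). This contrast was looked at after the values were seen and has 1 array on its side, so it has no test. Of the 10 members 5 were higher by 0.5 or more, against 1169 of all genes (6.43 percent), and 0 were lower by 0.5 or more, against 931 genes (5.12 percent). The same array lay above the other 5 E17R2 arrays for 5 members (Hif1a, Slc2a1, Pdk1, Egln3 and Bnip3), against 20.6 percent of all genes. Of the 12 probe sets of Slc2a1, Pdk1, Egln3, Bnip3 and Adm, 11 were higher by 0.5 or more. The exception was 1434974_at of Pdk1 at 0.37, whose level was 3.00. These 5 genes were picked by their main probe sets, which pass by that choice. Only their other probe sets add to it, and they were read on the same array.

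Listed pathway genes were counted on the same array. Of 20 glycolysis and lactate genes with a named probe set, 8 were higher by 0.5 or more and 0 lower, with a median of 0.43. Of 26 other HIF targets, 12 were higher and 2 lower, with a median of 0.47, against a median of -0.04 over all genes. Of 15 HIF partners and oxygen-sensing genes, 1 was higher and 1 lower. By the same measure 2 of 18 VEGF, angiopoietin and adrenomedullin signalling genes were higher and 1 lower, 2 of 3 NDRG family genes (Ndrg2 by 0.94 and Ndrg4 by 0.84) were higher, and 1 of 8 carbonic anhydrases was higher and 3 lower.

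Markers of other cells moved on the same array. All 8 smooth muscle markers were higher by 0.5 or more than in homozygous replicates 1 and 2, with a median of 3.46, and their summed intensity was 34140 against 3611 to 4949 on the other 5 E17R2 arrays. All 6 urothelium markers were higher, with a median of 1.36 and a summed intensity of 1245 against 334 to 561, and 5 of 6 skeletal muscle markers were higher, with a median of 2.19. Chromaffin and sympathetic markers were higher in 4 of 5, with a median of 0.87, and adrenal cortex markers lower in 6 of 7, with a median of -0.77. Proximal tubule markers were lower in 9 of 9, with a median of -1.03, and kidney markers in 13 of 16, with a median of -0.77. The part of these cells in the level of the hypoxia genes was not tested, and in bulk RNA fewer cells of a type and less RNA per cell cannot be told apart. The summed intensity of skeletal muscle markers was 9454 on homozygous replicate 3, 6755 on wild-type replicate 3 and 220 to 2027 on the other 4 E17R2 arrays.

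Without homozygous replicate 3, the E17R2 differences were -0.11 for Slc2a1, -0.03 for Pdk1, -0.20 for Egln3 and -0.21 for Bnip3, with adjusted limma p of 0.937 to 0.998. With it they were 0.21 ± 0.26 for Slc2a1, 0.20 ± 0.21 for Pdk1, 0.14 ± 0.28 for Egln3 and 0.05 ± 0.23 for Bnip3 (SE), with adjusted p of 0.88 to 0.98. The median over the 10 members was 0.05 with all arrays and -0.13 without it, and the median over all genes was -0.01.

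**Figure D4:**
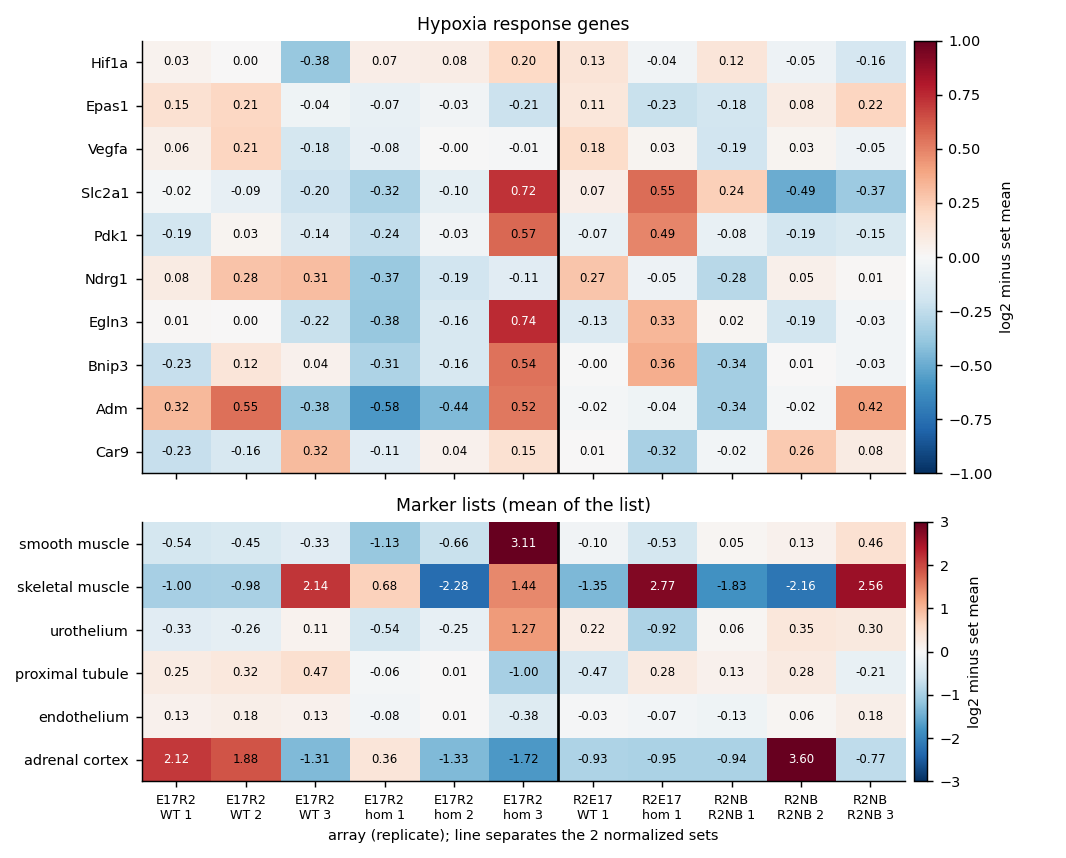
Log2 intensity minus the mean of the same normalized set, with red above and blue below that mean and the value printed in each cell. The upper panel has the 10 genes and the lower panel the mean of each of 6 marker lists, with a wider colour scale, and columns are the 11 arrays with a line between the sets. The columns E17R2 hom 3 and R2E17 hom 1 are red for Slc2a1, Pdk1, Egln3 and Bnip3, with smooth muscle at 3.11 in the first and -0.53 in the second.

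The R2E17 pair offers a second look at genotype in the other set, with 1 array a side and therefore no replicate check. The homozygous array was higher than the wild-type array for Pdk1 (9.55 against 8.99), Slc2a1 (10.71 against 10.22), Egln3 (9.36 against 8.89) and Bnip3 (11.60 against 11.23). These are differences of 0.56, 0.49, 0.47 and 0.36. The 4 genes were also high on E17R2 homozygous replicate 3, but Adm, with the widest difference there, differed by -0.02 in the pair. The other 6 members were lower in the homozygous array, by 0.34 for Epas1, 0.33 for Car9, 0.33 for Ndrg1, 0.17 for Hif1a, 0.16 for Vegfa and 0.02 for Adm. By the main probe sets, Epas1, Vegfa, Ndrg1 and Adm were lower in the homozygous mean of both comparisons. Of these, Vegfa was near 0 in E17R2 (-0.06) and Adm in the pair (-0.02). Of all 18193 genes, 8574 lay above 0 in E17R2 and 9249 in the pair. The share lower in both was not counted, so the shared direction is not read as particular to these members. In the pair, the second probe sets of Epas1, Vegfa and Adm were instead higher in the homozygous array, by 0.10, 0.41 and 0.31. A difference of 0.5 or more upward was found for 1 member, Pdk1, against 8 percent of all genes, and downward for 0 members against 3.7 percent. The median gene lay 0.12 higher on the homozygous array, so centring lowers every difference of the pair by that much. Pdk1 was then below 0.5, as it was after quantile normalization, and of all genes past 0.5 the higher ones were 45.1 percent with centring and 68.4 percent without.

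The wider lists were counted in the same pair. Of 26 other HIF targets 7 were higher by 0.5 or more and 2 lower, with a median of 0.29, and of 20 glycolysis and lactate genes 5 were higher and 2 lower, with a median of 0.25, beside 0.01 over all genes. Other probe sets of the members gave larger values than the main ones for Slc2a1 (0.58 and 0.82) and for 1435836_at of Pdk1 (0.86), whereas 1423747_a_at of Pdk1 gave -0.01 and the dim 1434974_at gave -0.43. The direction of Hif1a in the pair depended on the probe set, with -0.17 for the main one, -0.09 for 1416035_at, 0.38 for the dim 1431981_at and 1.09 for 1448183_a_at. The second Egln3 probe set gave 0.30. All 6 skeletal muscle markers were higher by 0.5 or more in the homozygous array, with a median of 4.43 and a summed intensity of 8737 against 339, while smooth muscle markers had a median of -0.18. Proximal tubule markers were higher by 0.5 or more in 6 of 9, with a median of 0.83. Urothelium markers were lower by 0.5 or more in 5 of 6, with a median of -0.91. The part of these cell types and of the 3' to 5' difference of the wild-type array in the values of the pair was not tested. The genotype difference was compared between the 2 title series with an interaction term over all 11 arrays in limma. It called 3 genes (0.0165 percent), none of them a member, and the members' adjusted p ran from 0.62 for Hif1a to 0.94 for Vegfa.

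The arrays labelled R2NB were compared with the R2E17 homozygous array, within their own set, in a fit where the lone array was assumed to vary like the R2NB arrays. The 4 genes that were high on the R2E17 homozygous array were lower in R2NB, by 0.40 (Egln3) to 0.76 (Slc2a1), and no member passed the test. Those 4 genes were named for being high on the array that is the reference here. That choice favours lower values in R2NB. The pair and this contrast share that array, so they are not separate observations. Slc2a1 was 10.39, 9.66 and 9.78 in R2NB arrays against 10.71, a difference of -0.76 ± 0.39 (SE; limma, adjusted p = 0.85), with replicate 1 high among the R2NB arrays. Pdk1 was 8.98, 8.87 and 8.91 against 9.55, a difference of -0.63 ± 0.06 (SE), with an unadjusted limma p of 0.0029 and an adjusted p of 0.54. The SE of Pdk1 was 0.26 with the spread taken from all 11 arrays, and its difference was -0.35 ± 0.18 with both R2E17 arrays as the reference. Bnip3 was 10.90, 11.24 and 11.21 against 11.60, a difference of -0.48 ± 0.19 (SE; limma, adjusted p = 0.77), and of -0.30 ± 0.17 with both R2E17 arrays as the reference. Egln3 was 9.04, 8.84 and 8.99 against 9.36, a difference of -0.40 ± 0.11 (SE), with an unadjusted limma p of 0.040 and an adjusted p of 0.64, with an SE of 0.36 by the spread of all 11 arrays, and it was -0.17 ± 0.17 with both R2E17 arrays as the reference.

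All 3 R2NB arrays lay below the R2E17 homozygous array for these 4 members and for no other, against 22.5 percent of all genes. All 3 lay above it for Epas1 (11.67, 11.93 and 12.06 against 11.62) and Car9 (5.17, 5.45 and 5.27 against 4.87), 2 of 10 members against 20.2 percent of all genes. The Car9 difference of 0.43 ± 0.15 and the Epas1 difference of 0.26 ± 0.20 (SE) had adjusted limma p of 0.72 and 0.97. Hif1a, Vegfa, Ndrg1 and Adm differed by between -0.10 and 0.06, with R2NB arrays on both sides of the R2E17 homozygous array for each of them but Vegfa, where replicate 2 reached the same level at 2 decimals. The limma test called 0 genes over the whole table (0 percent), and 1329 genes (7.31 percent) had an unadjusted p under 0.05, 2 of them members.

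Against the R2E17 wild-type array the R2NB means differed by between -0.35 (Ndrg1) and 0.10 (Car9), and by -0.27 for Slc2a1, -0.07 for Pdk1, 0.07 for Egln3 and -0.12 for Bnip3. Of the 20 glycolysis and lactate genes, all 3 R2NB arrays lay below the R2E17 homozygous array for 12 and above it for 0, and of the 26 other HIF targets for 16 and 3. The medians of these lists were -0.27 and -0.28, beside 0.00 over all genes. These list values and those of the pair share the R2E17 homozygous array, so they are not separate observations. Skeletal muscle markers had a median of -3.47 in the same contrast, with summed intensities of 235, 186 and 10178 in the R2NB arrays against 8737. The part of muscle RNA in these differences was not tested.

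The other genes of the pathway were tested in the E17R2 comparison. None of the 90 listed genes passed in either direction, and those named have the smallest p of their list. Among HIF partners and oxygen-sensing genes (0 of 15 passed), Cited2, which competes with HIF for a co-activator, differed by -0.28. Arnt, the beta subunit, differed by 0.10 and Rbx1, part of the ligase that removes the alpha subunit, by 0.14. The Rbx1 probe set was dim, with means of 4.36 in wild-type and 4.50 in homozygous arrays. Without homozygous replicate 3 Cited2 gave -0.10, Arnt 0.10 and Rbx1 0.18. The R2E17 pair had the opposite sign for each, at 0.26 for Cited2, -0.14 for Arnt and -0.36 for Rbx1. Among glycolysis and lactate genes (0 of 20), Pdk2, a pyruvate dehydrogenase kinase like Pdk1, was 6.04 ± 0.14 in wild-type and 5.61 ± 0.03 in homozygous arrays (SD, n = 3). Its difference of -0.43 ± 0.10 (SE; limma, adjusted p = 0.84) was opposite in sign to that of Pdk1 with all arrays. Without homozygous replicate 3 both were below 0, at -0.42 for Pdk2 and -0.03 for Pdk1. In the R2E17 pair Pdk2 differed by 0.07. Hexokinase Hk2 differed by 0.21 and Pfkfb3, which makes an activator of glycolysis, by 0.33. Without homozygous replicate 3 Hk2 gave 0.04 and Pfkfb3 0.07. Among other HIF targets (0 of 26), the haem oxygenase gene Hmox1 differed by -0.59, the secreted glycoprotein gene Stc2 by 0.51 and the glycogen regulator Ppp1r3c by 0.44. Hmox1 was lower in the R2E17 homozygous array too, by 0.86, and Ppp1r3c was higher there by 1.67, whereas Stc2 differed by -0.06.

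Among VEGF, angiopoietin and adrenomedullin signalling genes (0 of 18 passed), the 3 with the smallest p belonged to the angiopoietin axis. The receptor genes Tie1 and Tek differed by -0.45 ± 0.16 and -0.37 ± 0.14 and the ligand gene Angpt2 by -0.31 ± 0.13 (SE; limma, adjusted p = 0.84 for each). The groups overlapped for Angpt2, and the ligand gene Angpt1 differed by -0.02. In the R2E17 pair Tie1 and Tek differed by -0.17 and -0.12 and Angpt2 by 0.15. All 3 homozygous arrays lay below all 3 wild-type arrays for 4 of these 18 genes and above them for 2. The shares of all genes were 7.24 percent below and 5.05 percent above. Tie1 and Tek are also in the list of 10 endothelial markers, which had a median of -0.30. Of these markers 6 were lower in all 3 homozygous arrays, against the same 7.24 percent. Without homozygous replicate 3 the values were -0.27 for Tie1 and -0.23 for Tek. In the NDRG family the differences were 0.15 for Ndrg2, -0.09 for Ndrg3 and 0.17 for Ndrg4 (limma, adjusted p of 0.91 to 0.94). With all arrays they did not share the direction of Ndrg1 throughout. Without homozygous replicate 3 they were -0.16, -0.01 and -0.11, all below 0 as for Ndrg1. Among carbonic anhydrases (0 of 8), Car15, Car2 and Car4 differed by -0.54, -0.66 and -0.52. Without homozygous replicate 3 they gave -0.29, -0.48 and -0.23. In the R2E17 pair they were instead higher in the homozygous array, by 0.39, 0.48 and 0.66. Car2 and Car4 serve acid handling along the tubule. Proximal tubule markers had a median of -0.76 in the E17R2 comparison, with all 3 homozygous arrays below all 3 wild-type arrays for 7 of 9. In the pair their median was 0.83, and their part in these values was not tested.

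Across the 11 arrays, centred on the mean of each set, Slc2a1, Pdk1, Egln3 and Bnip3 varied together. Pearson r was 0.89 between Slc2a1 and Pdk1, 0.91 between Pdk1 and Egln3, 0.87 between Slc2a1 and Egln3, 0.86 between Pdk1 and Bnip3, 0.78 between Egln3 and Bnip3 and 0.61 between Slc2a1 and Bnip3. Hif1a had r between 0.00 and 0.48 with these 4, and Epas1 between -0.67 and -0.28. Vegfa had r of at most 0.56 with any other member, and Ndrg1 at most 0.57. These are descriptions over 11 arrays that share 2 normalizations and include the 2 arrays on which the 4 genes were high.

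Genes whose pattern was most like a member were taken from the whole table by the same measure. For Egln3 they were Ddit4 (r 0.98), a stress-induced inhibitor of mTOR signalling and a HIF target on the list, Tmem70 (r 0.97), an assembly factor of ATP synthase, and Triobp (r 0.96), an actin-binding protein. Ddit4 was 9.75 on E17R2 homozygous replicate 3 against 8.77 to 9.12 on the other 5 arrays of the set. For Ndrg1 they were Tes3-ps (r 0.93), Robo2 (r 0.90) and Opa1 (r 0.90), a dynamin-like protein of mitochondrial fusion. The Robo2 probe set is the dim one described above, so its likeness rests on values near the bottom of the range. For Vegfa they were Lmbr1 (r 0.94), Kalrn (r 0.93) and Exoc2 (r 0.92).

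The 2 sets of arrays were last compared relative to the median gene of each array, with no test, since normalization and title series cannot be told apart. The difference of the 5 arrays from the 6 arrays was 0.996 for Ndrg1 and 0.740 for Epas1, above 97.6 and 95.7 percent of all genes. It was -0.84 for Slc2a1 and -0.65 for Car9, above 9.09 and 17.1 percent of all genes. For these 4 members no array of a set overlapped the other set. The share of all genes without overlap was not counted, so this separation is not read as particular to these members. Ndrg1 ran from 2.85 to 3.52 above the median gene on the E17R2 arrays and from 3.93 to 4.56 on the others. Slc2a1 ran from 3.20 to 4.29 and from 2.17 to 3.18. Hif1a gave -0.42, and the other 5 members gave -0.20 to -0.08, within the quartiles of all genes (-0.50 and 0.14, with a median of -0.17). The offset held within genotype for Ndrg1, where R2E17 minus E17R2 was 1.14 among wild-type and 1.11 among homozygous arrays, and for Slc2a1, where it was -0.58 and -0.45. In the same contrast, proximal tubule markers had a median of 1.87 and thick ascending limb markers 1.23, and their part in the Ndrg1 and Epas1 offsets was not tested.

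**Figure D5:**
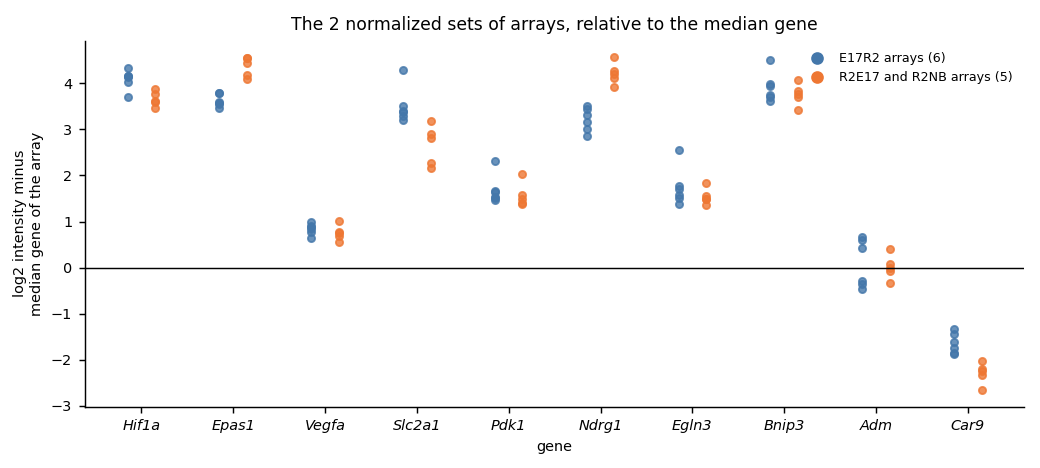
Log2 intensity minus the median gene of the same array (vertical axis) for the 10 genes (horizontal axis), with 1 point per array, blue for the 6 E17R2 arrays and orange for the 5 R2E17 and R2NB arrays. Blue and orange points separate for Epas1, Slc2a1, Ndrg1 and Car9, with orange higher for Epas1 and Ndrg1 and lower for Slc2a1 and Car9.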

How the data were processed

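Gene expression in 11 embryonic day 17 mouse kidney samples was measured on Affymetrix arrays. Per the submitters' processing notes, the authors deposited RMA intensity values; no version is given in them. The values are linear, so log2 was taken with no pseudocount. Of 45101 probe sets, 64 were controls, 34945 had 1 gene symbol in the platform annotation, 932 had several and 9160 were unnamed. Of those with 1 symbol, 34741 were matched by gene identifier to RefSeq (GRCm38.p6), whose symbol was then used. Each gene was represented by its brightest probe set on average over all arrays, giving 18193 genes; members have 26 probe sets. Part of the free-text labels speaks of human brain, against the labels for organism and tissue, which were followed.

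The tests used lmFit and eBayes of limma 3.58.1 (R 4.3.3), were 2-sided, and were adjusted by Benjamini-Hochberg across the 18193 genes at 0.05; summaries and figures used Python 3.11.15. The script was tested on simulated data. The E17R2 arrays were fitted alone, and the other 5 arrays with a coefficient per group. A log2 difference of 0.5 marked changes between single arrays. The number of arrays limits the precision. Members, pathway lists and tests were chosen with earlier results of these data known. Besides the members, genes named are the 3 with the smallest E17R2 p in each list, the 3 most alike in pattern to Ndrg1, Vegfa and Egln3, and those said to be chosen after their values were seen. Listed genes with no probe set of their own named here, among them Gapdh, Eno1, Gpi1, Bnip3l, Epo and Loxl2, were left out. Alternatives were scaling, an offset, all probe sets, a filter on dim genes, other spreads and references, and leaving out each array.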

Additional observations from a re-analysis of the deposited data

Results flagged for a closer look

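Hif1a drew attention because its direction differed between the title series. All 3 E17R2 homozygous arrays lay above all 3 wild-type arrays, with a mean difference of 0.23, whereas the R2E17 homozygous array lay below its wild-type array, at -0.17. This direction in the pair was shared by 1416035_at at -0.09, and the other probe sets went the opposite way. The dim 1431981_at gave 0.38, and 1448183_a_at gave 1.09, at 5.39 on the wild-type and 6.47 on the homozygous array. The difference between the E17R2 and R2E17 effects of the main probe set was tested with an interaction term in limma over the 11 arrays. It did not pass (0.40, adjusted p = 0.62).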

How the results depend on the processing

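No member passed the threshold in either limma comparison under any alternative that was run, and all 248 values of single members stayed on the same side of the threshold. In E17R2 the count of genes past the threshold was 0, and leaving out single arrays gave 0 to 1, the 1 without wild-type replicate 3. The members' median of 0.05 ran from -0.13 (without homozygous replicate 3) to 0.17 over these fits. For R2NB against the R2E17 homozygous array, 2 genes passed when the spread came from all 11 arrays, against 0, and leaving out single arrays moved the members' median from -0.06 to between -0.12 and -0.05, and it was -0.17 with both R2E17 arrays as the reference. In the R2E17 pair, 0 members were past 0.5 after median gene centring or quantile normalization, against 1, and the members' median of -0.09 was 0.26 with the mean of all probe sets. For homozygous replicate 3 against replicates 1 and 2, 5 members were past 0.5 under both alternatives, which were chosen after seeing the data. The contrast of the sets kept its direction in both alternatives. No paired analysis was possible because the groups compared share fewer than 2 numbers in the titles. Values of dim probe sets, such as those of Car9 and Robo2, are limited by the signal over background.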

Other observations

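Beyond the members, the listed genes with the widest differences in the R2E17 pair were named after their values were seen, and they have no test. The homozygous array was higher for Ankrd37 (8.01 against 6.31), Ppp1r3c (10.59 against 8.92), Hk2 (8.80 against 7.27), P4ha1 (9.64 against 8.35), Slc16a3 (4.75 against 3.49) and the HIF alpha subunit gene Hif3a (10.88 against 9.73). It was lower for Angptl4 (7.28 against 9.76) and Pdk4 (7.32 against 9.46), 2 genes known to rise when fatty acids are used. Among the R2NB arrays, replicate 1 had Angptl4 at 7.35 and Pdk4 at 6.91, near the R2E17 homozygous array, while replicates 2 and 3 had 10.21 and 10.01 for Angptl4 and 9.27 and 9.58 for Pdk4, near the wild-type array. Replicate 1 was also the R2NB array with the highest Slc2a1 (10.39), Hk2 (8.39) and P4ha1 (9.33), but the one with the lowest Bnip3 (10.90).

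On E17R2 homozygous replicate 3 the listed genes furthest above homozygous replicates 1 and 2 were Ramp1 (2.78), Nrp2 (2.02), Pfkp (1.95) and Car3 (1.49). Ramp1 encodes a receptor activity-modifying protein, Nrp2 a VEGF co-receptor, Pfkp a glycolytic enzyme and Car3 a carbonic anhydrase of muscle and fat. The related genes Ramp2 and Ramp3 differed by -0.26 and -0.33. The same array had smooth muscle markers 3.46 higher, whose part in these values was not tested.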
